A study of Mus musculus with 15 samples.

Results

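The 9 genes described here are read as outputs of the transcriptional coactivator YAP or as marks of injured intestinal epithelium: Ankrd1, Ccn1, Ccn2, Thbs1, Fn1, Clu, Anxa1, Ereg and Areg. A gene was taken from a probe set that carried its symbol alone, and the probe set with the highest mean would have been kept had there been several. Of the 9 genes, 8 were measured by 1 probe set each, out of 18820 genes on the array, and Areg is not analysed here. They were followed on 15 Affymetrix mouse gene arrays of confluent 2D monolayers of duodenal organoid cells, with 3 arrays in each of 5 groups. All cells came from the crypts of female wild type C57BL/6J mice aged 9 weeks, and all were grown on Matrigel in a medium with EGF, Noggin, WNT3A and R-Spondin. For 6 h the monolayers received yellow mealworm (YMW), casein (CAS), spray dried plasma protein (SDPP) or soybean meal (SBM), each undigested and labelled as 4% (w/v), or DMEM alone as the medium control (MC). The methods also give a far lower mass per volume for the same dose. Each array held 3 pooled wells, the methods name 3 mice, and the labels call the arrays biological replicates without tying an array to a mouse. The p-values therefore measure the spread between these arrays.

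The monolayers had transcripts that mark their labelled tissue. All 8 epithelial genes listed (among them Epcam, Cdh1 and Vil1) and all 4 genes listed for the proximal small intestine (Pdx1, Gata4, Cdx2 and Onecut2) were above background, a log2 intensity of 3.91 set from olfactory and vomeronasal receptor genes. Cdx2 and Onecut2 were the highest of the 4, with means of 9.94 and 9.80, and Cdx2 marks the whole intestine, not its proximal part. Over all genes 68.4% were above background, so the counts alone say little. Of the genes that mark other tissues, 5 of 13 for fibroblasts and muscle, 4 of 6 for endothelium, 5 of 7 for blood and 1 of 3 for glia and neurons were not above it, with Pdgfra, Pecam1 and Ptprc among those. The rest were above it, 8 for fibroblasts and muscle and 2 for each of the other tissues. Col6a1 and Col1a1, with means of 5.28 and 5.22, were the highest for fibroblasts and muscle. Over all genes any 2 arrays correlated at 0.976 to 0.997, with median intensities per array of 21.7 to 24.1. The 3 MC arrays did not lie together. MC replicate 1 lay among the treated arrays for most of the genes described here, while MC replicates 2 and 3 lay far from both, so the counts against the MC are given below with all 3 MC arrays and with other choices of them.

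YAP and its relative TAZ (Wwtr1) are held in the cytoplasm when the kinases of the Hippo pathway phosphorylate them. When cells are stretched, lose neighbours or reattach, YAP and TAZ enter the nucleus and bind TEAD factors, which find their target genes through a short DNA motif. Ankrd1, Ccn1 and Ccn2 are the targets most often used to read this out. In the gut, YAP is known for its role in repair after injury, when crypts take on a fetal-like state in which Clu and Anxa1 are raised and the EGF receptor ligands Ereg and Areg feed growth.

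The RefSeq promoter table (build GRCm38.p6) held 4 of the 9 genes, and the 3 that were measured are shown because the motif through which YAP acts can be looked for in them. The 250 bases before the transcription start are given in the sense of the gene, all 3 on the minus strand, with the TEAD motif GGAATG, or CATTCC where it lies on the other strand, in capitals. The windows are chr19:36119845-36120094 for Ankrd1, chr3:145649986-145650235 for Ccn1 and chr19:20390672-20390921 for Anxa1.
Ankrd1: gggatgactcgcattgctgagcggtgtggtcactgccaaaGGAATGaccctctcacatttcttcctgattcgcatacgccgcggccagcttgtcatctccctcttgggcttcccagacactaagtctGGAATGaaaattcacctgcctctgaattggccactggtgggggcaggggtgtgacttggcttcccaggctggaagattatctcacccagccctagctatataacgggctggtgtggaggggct
Ccn1: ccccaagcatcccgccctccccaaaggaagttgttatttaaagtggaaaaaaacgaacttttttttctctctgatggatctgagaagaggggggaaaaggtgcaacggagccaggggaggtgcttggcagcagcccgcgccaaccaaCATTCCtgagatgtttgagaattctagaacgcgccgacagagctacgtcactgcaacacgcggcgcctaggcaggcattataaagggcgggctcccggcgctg
Anxa1: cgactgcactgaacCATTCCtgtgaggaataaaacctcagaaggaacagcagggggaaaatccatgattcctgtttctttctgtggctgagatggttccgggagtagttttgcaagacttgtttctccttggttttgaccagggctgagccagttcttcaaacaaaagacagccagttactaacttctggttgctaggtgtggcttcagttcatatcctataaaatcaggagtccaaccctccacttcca
The Ankrd1 window held the motif at 2 places, 210 to 205 and 123 to 118 bases before the start. The Ccn1 window held it at 103 to 98 bases and the Anxa1 window at 236 to 231 bases before the start, both on the other strand. The Areg window held none. Of 32851 mouse promoter windows of this length, 12.6% held the motif on either strand. The AP-1 motif TGANTCA, found in 6.75% of the windows, and the SRF CArG box, found in 1.47%, were not among the letters of these 4 windows. A match describes the letters alone and is no measured binding site.

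Ankrd1, a nuclear ankyrin repeat protein first known from heart muscle, spread most among the arrays. Its log2 intensity was 8.95, 4.65 and 3.62 on MC replicates 1, 2 and 3, and the last of these was below background. It was 7.87, 7.87 and 7.94 with CAS, 7.73, 7.65 and 7.51 for SBM, 7.88, 8.03 and 7.99 for SDPP and 8.52, 8.40 and 7.90 for YMW. The 12 treated arrays thus spanned 1.01 log2 units against 5.33 for the 3 MC arrays, and all of them lay between MC replicate 1 above and MC replicates 2 and 3 below.

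Ccn1 and Ccn2 encode secreted matricellular proteins (Cyr61 and CTGF in the older naming) that bind integrins. Ccn1 measured 9.66, 7.38 and 7.32 on the MC arrays, 9.73, 9.19 and 9.43 with CAS, 8.86, 8.72 and 8.73 for SBM, 9.22, 9.03 and 9.37 for SDPP and 9.50, 9.45 and 9.30 for YMW. Ccn2 measured 9.28, 6.74 and 6.42 on the MC arrays, 9.03, 8.64 and 8.54 with CAS, 8.19, 7.76 and 7.74 for SBM, 8.62, 8.53 and 8.82 for SDPP and 8.40, 8.79 and 8.65 for YMW. In both genes the 3 SBM arrays were the lowest of the treated arrays with no overlap, and MC replicates 2 and 3 were lower still.

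Thbs1, a matricellular glycoprotein that activates TGF-beta, and Fn1, the matrix protein fibronectin, had the same placing of the MC arrays. Thbs1 measured 9.18, 6.43 and 6.12 on the MC arrays, 9.38, 9.05 and 8.81 with CAS, 8.90, 8.47 and 8.00 for SBM, 8.81, 8.34 and 9.23 for SDPP and 8.80, 9.01 and 8.83 for YMW. Fn1 measured 8.12, 4.24 and 4.34 on the MC arrays, 7.90, 7.61 and 7.35 with CAS, 7.96, 7.41 and 7.14 for SBM, 7.80, 7.36 and 8.13 for SDPP and 8.05, 7.85 and 7.84 for YMW. In both genes the 4 sources overlapped, MC replicate 1 lay within the treated arrays and MC replicates 2 and 3 lay below all of them.

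Clu, the secreted chaperone clusterin, varied least of the 8 genes among the treated arrays, with an SD of 0.14 over all 12. It measured 12.04, 9.97 and 9.68 on the MC arrays, 12.05, 11.82 and 11.74 with CAS, 11.98, 11.82 and 11.62 for SBM, 11.83, 11.68 and 11.93 for SDPP and 11.69, 11.98 and 11.96 for YMW. Anxa1, annexin A1, a calcium-dependent phospholipid-binding protein known for limiting inflammation and aiding wound closure, measured 11.11, 10.32 and 10.33 on the MC arrays and 10.53 to 11.07 on the treated arrays, with a median of 10.76. For Clu MC replicates 2 and 3 stood well apart from the other 13 arrays, and for Anxa1 they were the lowest arrays too but by a small margin.

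Ereg, the EGF receptor ligand epiregulin, had a mean log2 intensity of 3.74 and was not above background, with 3 of 15 arrays over it. It measured 3.72, 3.72 and 3.56 on the MC arrays and 3.42 to 4.02 on the treated arrays. The groups overlapped, and no level of the transcript could be separated from background here.

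**Figure D1:**
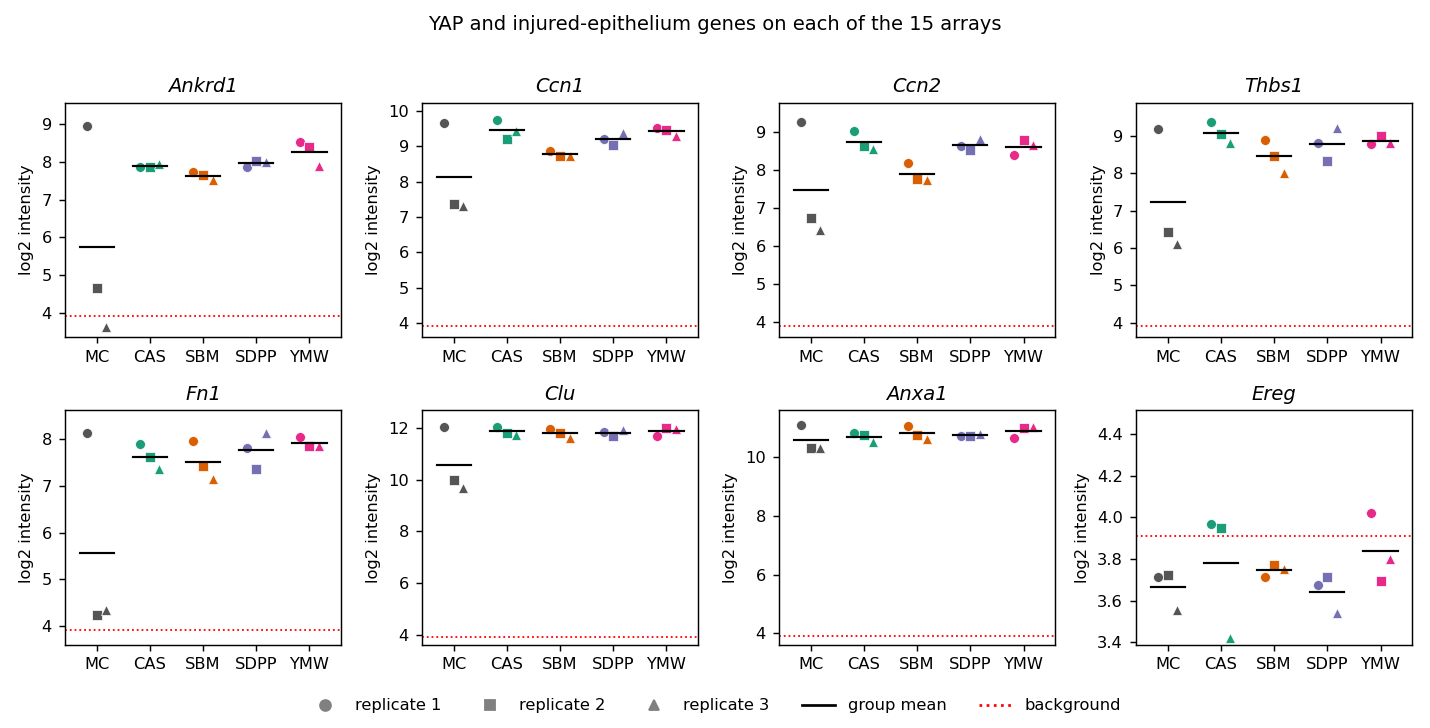
Log2 intensity (y axis, its range set for each gene) of the 8 measured genes on the 15 arrays by group (x axis). Points are arrays, with a shape for each replicate number, black bars are means of 3 arrays and the dotted red line is the background of 3.91. In all genes but Ereg, MC replicates 2 and 3 lie below all 12 treated arrays, and MC replicate 1 lies within or above them.

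Against the MC, 6 of the 8 genes were higher with CAS, SDPP and YMW, and 4 were higher with SBM, at the study's threshold of an unadjusted p under 0.05 with a fold change of at least 1.5. These counts come from 1 limma fit to the 15 arrays with a mean for each of the 5 groups. Over all 18820 genes the share called higher was 1.82% (CAS), 1.37% (SBM), 1.13% (SDPP) and 1.74% (YMW). No gene of the 8 was lower. The 4 comparisons use the same 3 MC arrays, so they are not independent of each other. The median log2 difference of the 8 genes was 1.32 (CAS), 0.93 (SBM), 1.21 (SDPP) and 1.31 (YMW), where the median of all genes lay between −0.01 and 0.02.

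Ankrd1 had the highest log2 difference of all genes with SDPP (2.23) and YMW (2.54), the second highest with CAS (2.15) and the sixth highest with SBM (1.89), each with an SE of 0.87. Fn1 stood among the first 5 in each comparison, at 2.05 (CAS), 1.94 (SBM), 2.19 (SDPP) and 2.35 (YMW), each with an SE of 0.70. Thbs1 differed by 1.83, 1.21, 1.55 and 1.63 in the same order (SE 0.56), and Clu by 1.31, 1.24, 1.25 and 1.32 (SE 0.41). With every source these 4 genes were past the threshold.

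Ccn1 and Ccn2 passed it with 3 sources and not with SBM. Ccn1 was higher by 1.33 with CAS, 1.08 with SDPP and 1.30 with YMW (SE 0.42), and its difference with SBM was 0.65 (adjusted p = 0.433 by limma). Ccn2 was higher by 1.25 with CAS, 1.18 with SDPP and 1.13 with YMW (SE 0.50), and its difference with SBM was 0.42 (adjusted p = 0.693 by limma). Anxa1 differed by 0.12 to 0.32 (SE 0.18) and Ereg by −0.02 to 0.17 (SE 0.13), and neither passed with any source.

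None of the 22 calls passed a Benjamini-Hochberg adjustment over all genes. Their unadjusted p ran from 0.00481 to 0.0480 and their adjusted p from 0.127 to 0.384 by limma. At an adjusted p under 0.05 the fit called 123 (CAS), 1 (SBM), 0 (SDPP) and 1 (YMW) of all genes, which are 0.654%, 0.00531%, 0% and 0.00531%, beside 3104, 3430, 2259 and 3583 genes at an unadjusted p under 0.05. With the mean of the 4 sources set against the MC, the 6 genes called with CAS were called again, as were 1.45% of all genes in the same direction, and adjusted p by limma was 0.0559 for Clu, 0.0589 for Fn1, 0.0702 for Thbs1, 0.0817 for Ccn1, 0.0843 for Ankrd1 and 0.147 for Ccn2.

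These differences depended on which MC arrays served as the control. For the 7 genes above background, MC replicates 2 and 3 lay below all 12 treated arrays, an arrangement found in 13.4% of all genes, and in each of the 7 MC replicate 1 did not lie below them, as in 12.7% of all genes. For Ankrd1, Ccn2 and Anxa1, MC replicate 1 lay above all treated arrays and MC replicates 2 and 3 below all of them, an arrangement found in 2.16% of all genes. The mean of the treated arrays was above the mean of MC replicates 2 and 3 by at least 12.7-fold for Ankrd1, whose MC replicate 3 was raised to the background for this bound, and by 10.6-fold for Fn1, 5.76-fold for Thbs1, 4.06-fold for Clu, 3.72-fold for Ccn2, 3.63-fold for Ccn1 and 1.39-fold for Anxa1. MC replicate 1 was itself above MC replicates 2 and 3 by at least 25.5-fold for Ankrd1, with the same bound, and by 14.2-fold for Fn1. It was above the treated mean by 2.02-fold for Ankrd1, 1.74-fold for Ccn2 and 1.15-fold for Clu. The folds of Fn1 over MC replicates 2 and 3 rest on values of 4.24 and 4.34, little above the background of 3.91.

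Left out of the fit, MC replicate 1 took Ccn1 and Ccn2 past the study's threshold with SBM too, at log2 differences of 1.42 and 1.32, so that 6 of the 8 genes were higher with each source. Without MC replicate 2 the number of the 8 genes called higher was 3 (CAS), 1 (SBM), 2 (SDPP) and 2 (YMW), and without MC replicate 3 it was 3, 0, 1 and 2. The share of all genes called higher with each single source in these 2 settings is not given here. The number of all genes called moved too. For the mean of the 4 sources, in either direction, it was 630 with all 3 MC arrays. Without MC replicates 1, 2 and 3 in turn it was 1633, 275 and 139. With MC replicate 1 as the only control array, a choice made with earlier results of these data known in which that array is assumed to vary like the other groups, the direction turned for all 7 genes above background with every source. Anxa1, called in neither setting, then differed by −0.41 (CAS), −0.29 (SBM), −0.36 (SDPP) and −0.21 (YMW). The difference of Ankrd1 from that array was −1.06 (CAS), −1.32 (SBM), −0.99 (SDPP) and −0.68 (YMW). The labels give no ground to prefer 1 MC array over another.

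**Figure D2:**
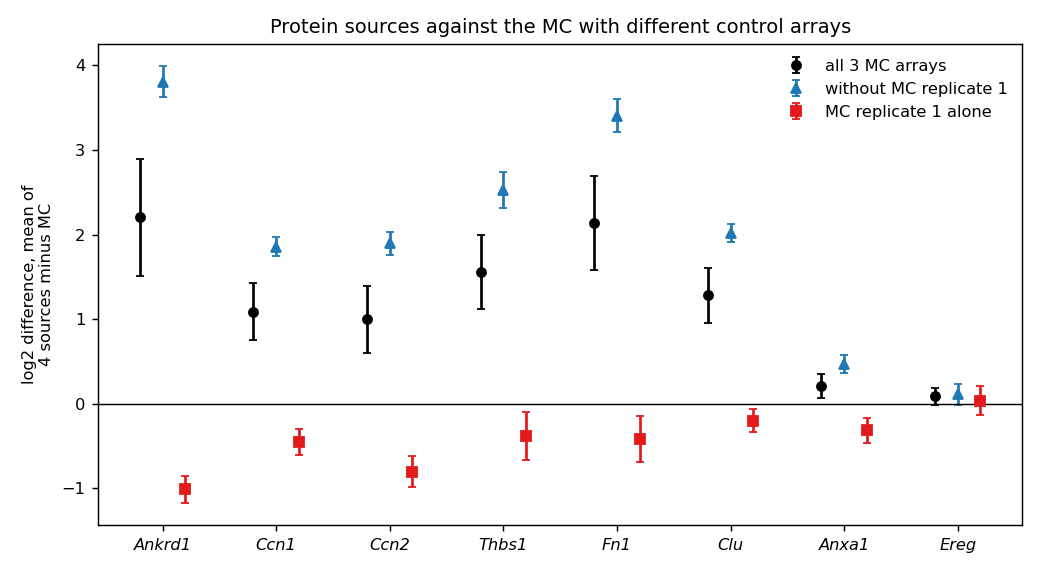
Log2 difference between the mean of the 4 protein sources and the MC (y axis) for the 8 measured genes (x axis), with all 3 MC arrays, without MC replicate 1 and with MC replicate 1 alone. Bars are the SE of the limma fit. For Ankrd1 the value is 2.20 with all MC arrays, 3.81 without MC replicate 1 and −1.01 with that array alone.

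Among the 4 sources, SBM gave the lowest levels of the YAP targets Ccn1, Ccn2 and Ankrd1. All 3 SBM arrays lay below the other 9 treated arrays in these genes, as they did in 0.781% of all genes. In the fit of all 15 arrays the spread of the MC arrays enters each SE, and no gene of the 8 passed with any source against the mean of the other 3, at the study's threshold or at an unadjusted p under 0.05 alone. A fit of the 12 treated arrays without the MC was added after seeing the data. In it Ccn2 was 1.70-fold lower with SBM, with a log2 difference of −0.77 (SE 0.12, adjusted p = 0.0650 by limma). Ccn1 was lower with a log2 difference of −0.59 (SE 0.10, adjusted p = 0.0930 by limma). These were 2 of the 4 genes called lower with SBM among all genes, 0.0213%, and the call of Ccn1 lay at the edge of the 1.5-fold limit and was lost in 10 of 17 alternatives, while that of Ccn2 was lost in none.

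Ankrd1 differed in the same direction, by −0.41 (SE 0.10, adjusted p = 0.436 by limma), under the fold threshold. The log2 difference with SBM was −0.46 (SE 0.18) for Thbs1, −0.26 (SE 0.17) for Fn1, −0.05 (SE 0.09) for Clu and 0.04 (SE 0.10) for Anxa1. With CAS, SDPP or YMW against the other sources none of the 8 genes reached the threshold in this fit, where 0.165%, 0.106% and 0.0744% of all genes did. At an unadjusted p under 0.05 alone, by limma, 2 of the 8 genes passed with CAS (Ccn1 at 0.32 and Ccn2 at 0.34), 4 with SBM (Thbs1 and Ankrd1 beside the 2 called), 0 with SDPP and 2 with YMW (Ankrd1 at 0.44 and Ccn1 at 0.28). The share of all genes was 7.07%, 6.04%, 3.44% and 7.04%.

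**Figure D3:**
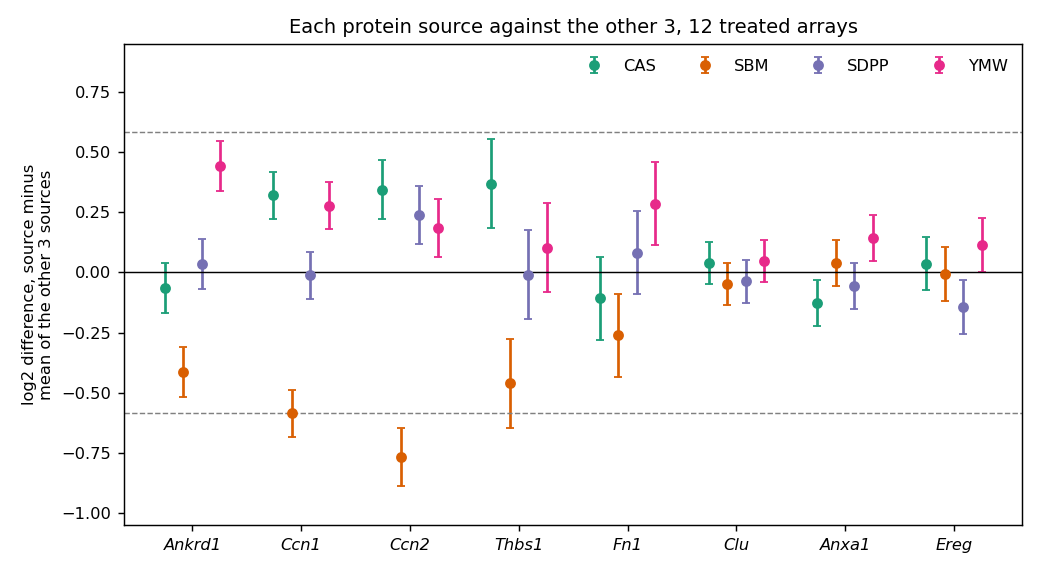
Log2 difference between each protein source and the mean of the other 3 (y axis) for the 8 measured genes (x axis), from the fit of the 12 treated arrays. Bars are the SE and dashed lines mark a 1.5-fold difference. SBM lies lowest in Ankrd1, Ccn1, Ccn2 and Thbs1, at −0.41, −0.59, −0.77 and −0.46.

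The 6 pairs of sources were compared for the 8 genes in the same fit, a choice made after seeing the data. Adjusted p covers all genes. Between CAS and SBM, Ccn2 differed by 0.84 (SE 0.15, 95% confidence interval 0.52 to 1.15) and Ccn1 by 0.68 (SE 0.12, interval 0.42 to 0.94), both with an adjusted p of 0.0451 by limma. Over 14 alternatives that value ran from 0.0263 to 0.260 for Ccn2 and from 0.0227 to 0.258 for Ccn1, and it was not under 0.05 in 9 and 11 of them. Thbs1 differed by 0.62 in that pair (SE 0.23, adjusted p = 0.564 by limma) and passed the study's threshold alone. In this pair 0.308% of all genes passed that threshold and 0.191% an adjusted p under 0.05. Without CAS replicate 1 the difference of Ccn1 was 0.54, under the fold threshold, and that of Thbs1 was 0.47, which did not pass either, as it did not without SBM replicate 3 (0.40).

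Between SBM and YMW, Ccn2 differed by −0.72, Ccn1 by −0.65 and Ankrd1 by −0.64, past the study's threshold as were 0.165% of all genes, with adjusted p of 0.221, 0.143 and 0.198 by limma. Without SBM replicate 3, YMW replicate 1 or YMW replicate 2, Ankrd1 no longer passed. Between SBM and SDPP, Ccn2 differed by −0.76 (adjusted p = 0.985 by limma), where 0.112% of all genes passed the threshold. No gene of the 8 passed it between CAS and SDPP, CAS and YMW or SDPP and YMW. For Clu the 95% confidence intervals of the 6 differences lay between −0.30 and 0.30, so smaller differences between sources could not be told from none.

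Of 25 core genes of the Hippo pathway measured, 1 (CAS), 2 (SBM), 1 (SDPP) and 2 (YMW) were called higher and none lower, with medians of 0.06, 0.00, 0.07 and 0.05. At an unadjusted p under 0.05 alone, by limma, 7, 6, 6 and 8 passed, in a comparison where 16.5% (CAS), 18.2% (SBM), 12% (SDPP) and 19% (YMW) of all genes did. Yap1 measured 8.37, 8.40 and 8.38 on the MC arrays and 8.22 to 8.66 on the treated arrays, and did not pass with any source. Wwtr1, which encodes TAZ, measured 6.86, 6.43 and 6.44 on the MC arrays and 6.65 to 7.00 on the treated arrays. It did not pass the study's threshold either. Among the TEAD factors Tead2 was higher with every source, by 0.91 (CAS), 0.76 (SBM), 0.81 (SDPP) and 1.07 (YMW), each with an SE of 0.30. It measured 6.33, 5.20 and 5.05 on the MC arrays and 5.88 to 6.92 on the treated arrays. In Tead2, Wwtr1, Tead1 and Tead4 alike, MC replicates 2 and 3 lay below all treated arrays and MC replicate 1 within them. Tead1 measured 8.30, 7.73 and 7.39 on the MC arrays, and Tead4 7.63, 6.74 and 7.01. Tead1, Tead3 and Tead4 did not pass the study's threshold, with differences of 0.19 to 0.47, 0.02 to 0.17 and 0.21 to 0.39. At an unadjusted p under 0.05 alone, by limma, Tead1 passed with CAS and SDPP, Tead4 with YMW and Wwtr1 with SDPP and YMW. The genes of this paragraph other than Tead2 were named for their role, outside the rule for named genes.

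Other genes counted as YAP targets moved in both directions. Of 22 measured, 3, 1, 2 and 4 were higher and 2, 1, 0 and 1 lower with CAS, SBM, SDPP and YMW, with medians of 0.04, 0.11, 0.10 and 0.13. Beside the counts of this and the other lists at the study's threshold, 1.82%, 1.37%, 1.13% and 1.74% of all genes were higher. In the same order 2.04%, 2.14%, 0.499% and 2.13% were lower. Ptpn14, a phosphatase that restrains YAP and is also on the Hippo list, was higher with SBM (0.93) and YMW (1.07) (SE 0.43). Tgfb1, the cytokine that Thbs1 activates, was higher with CAS (0.78), SDPP (0.67) and YMW (0.81) (SE 0.22). Asap1, an Arf GTPase-activating protein of focal adhesions, was lower with CAS (−0.71), SBM (−0.90) and YMW (−0.84) (SE 0.33), and Nt5e, the ectonucleotidase CD73, was lower with CAS (−0.94, SE 0.41).

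Of 22 other genes of the injured or fetal-like epithelium measured, 3, 1, 2 and 2 were higher and 3, 1, 2 and 2 lower with CAS, SBM, SDPP and YMW, with medians of −0.18, −0.27, −0.19 and −0.17. At an unadjusted p under 0.05 with no limit on the fold, by limma, 3, 1, 2 and 3 were higher and 8, 14, 7 and 8 lower, beside 8.91%, 10.8%, 5.63% and 9.11% of all genes lower. Ptgs2, the inducible cyclooxygenase of prostaglandin synthesis, was higher with every source, by 1.58, 1.95, 1.97 and 2.35 in that order (SE 0.64). Basp1, a membrane-bound signalling protein, was higher with CAS (0.88), SDPP (0.80) and YMW (1.02) (SE 0.33). Il33, an alarmin cytokine, was lower with every source, by −1.58, −1.56, −0.98 and −1.43 (SE 0.43), and Anxa10, an annexin like Anxa1, was lower with CAS (−0.66), SDPP (−0.61) and YMW (−0.65) (SE 0.15). For Ptgs2 too MC replicate 1, at 10.29, lay within the treated arrays, and MC replicates 2 and 3, at 6.80 and 6.74, lay below them.

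Of 9 other ligands of the EGF receptor family, the neuregulins Nrg1 to Nrg4 among them, none passed the study's threshold. An unadjusted p under 0.05 was reached by 1, 3, 0 and 1 with CAS, SBM, SDPP and YMW by limma. Only 5 of the 9 were above background, and Epgn, Nrg1, Nrg3 and Nrg4 were not. Btc, betacellulin, differed by 0.09 to 0.23, and Hbegf, the heparin-binding ligand, by −0.48 with SBM and −0.35 with CAS (SE 0.12). Of 15 genes of the receptor family, its sheddases and its feedback, Dusp6, an ERK phosphatase, was lower with CAS (−0.67) and SBM (−0.74), and Dusp4, another, was higher with YMW (0.60). At an unadjusted p under 0.05, by limma, 4, 5, 3 and 6 of these 15 passed. Of 17 receptors measured for matrix, CCN and thrombospondin proteins, Cd44, the hyaluronan receptor, was higher with CAS (0.60) and YMW (0.59). Itga5, a subunit of the fibronectin receptor, was higher with CAS (0.59). An unadjusted p under 0.05 was reached by 7, 7, 3 and 5 of the 17 by limma. The annexin receptors of that list, Fpr1, Fpr2 and Fpr3, were not measured. Of 15 other CCN, thrombospondin and matrix genes, the laminin chain Lama5 was higher with SDPP (0.60) and YMW (0.78), and Lama3 with CAS (0.61, adjusted p = 0.0447 by limma), and none was lower. An unadjusted p under 0.05 was reached by 1, 1, 3 and 2 of these 15 by limma. Beside the unadjusted counts of these 4 lists, the share of all genes was 16.5% (CAS), 18.2% (SBM), 12% (SDPP) and 19% (YMW).

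Genes of other cell states moved across the MC arrays alongside the 8 genes. The mean log2 intensity of the 8 was 9.01 on MC replicate 1, 6.68 and 6.42 on MC replicates 2 and 3, and 8.14 to 8.84 on the treated arrays. The mean of 15 absorptive enterocyte genes was 8.04, 9.98 and 9.97 on the MC arrays and 7.82 to 9.48 on the treated arrays. The mean of 8 crypt base stem cell genes was 8.96, 8.16 and 7.55 on the MC arrays and 8.67 to 9.09 on the treated arrays. The 8 epithelial genes had a mean of 11.04, 11.73 and 11.82 on the MC arrays and 11.02 to 11.54 on the treated arrays. MC replicates 2 and 3 were thus highest in the enterocyte and epithelial lists and lowest in the stem cell list and the 8 genes, while MC replicate 1 lay within the treated arrays in all 3 lists and above them in the mean of the 8 genes. The 13 genes of fibroblasts and muscle, cells known to make much Ccn2, Thbs1 and Fn1, had a mean of 4.12, 4.10 and 4.23 on the MC arrays and 3.98 to 4.18 on the treated arrays, and none passed the study's threshold, with 0, 2, 1 and 0 at an unadjusted p under 0.05 by limma. The part of these cell states in the result was not tested. In bulk RNA, fewer cells of a type and less RNA per cell cannot be told apart.

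At the study's threshold, 5, 9, 2 and 6 of the 15 enterocyte genes were lower with CAS, SBM, SDPP and YMW, and none was higher, where 2.04%, 2.14%, 0.499% and 2.13% of all genes were lower. Apoa4, an apolipoprotein of chylomicrons, was lower with CAS (−1.33) and SBM (−1.52) (SE 0.61), and S100g, a calcium-binding protein of absorptive cells, with SBM (−1.46) and YMW (−1.59) (SE 0.64). Apoa1, another apolipoprotein (−2.01, SE 0.92), and Slc2a2, the basolateral glucose transporter GLUT2 (−2.05, SE 0.94), were lower with SBM. Of the 8 stem cell genes, 3 were higher with every source, namely Olfm4 (1.45 to 1.54), Msi1 (1.05 to 1.24) and Lgr5 (0.71 to 0.94). The share of all genes that were higher was 1.82% (CAS), 1.37% (SBM), 1.13% (SDPP) and 1.74% (YMW). Vil1, which encodes the villin of the brush border, was the 1 epithelial gene that passed, lower with YMW (−0.60). No gene of the proximal, endothelial, blood or glial lists passed, with at most 1 gene of each at an unadjusted p under 0.05 by limma in any comparison of a single source with the MC. These counts turned on the MC arrays. Without MC replicate 1, a choice added after seeing the data, 13, 13, 10 and 13 enterocyte genes were lower and 5, 7, 5 and 6 stem cell genes higher, beside 4.48%, 4.9%, 3.44% and 4.6% of all genes lower and 4.59%, 4.5%, 3.89% and 4.93% higher. With MC replicate 1 alone no enterocyte gene was lower, 2 were higher with SDPP, and no stem cell gene passed. Of the lists above, without MC replicate 1 the Hippo core had 7, 3, 4 and 7 genes higher, other YAP targets 5 with each source and other injured or fetal-like genes 4, 3, 3 and 4. With that array alone none of these lists had a gene higher.

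Among the treated arrays the cell state lists of SBM overlapped with those of the other sources. The mean of the enterocyte list ran from 7.82 to 8.76 (SBM), 7.92 to 8.93 (CAS), 7.96 to 9.48 (SDPP) and 7.96 to 8.86 (YMW), and that of the stem cell list from 8.76 to 9.02, 8.67 to 8.99, 8.67 to 9.09 and 8.77 to 8.96. The mean of the 8 genes was 8.14 to 8.55 (SBM), 8.47 to 8.84 (CAS), 8.43 to 8.73 (SDPP) and 8.67 to 8.77 (YMW). In the fit of the 12 treated arrays the median log2 difference of SBM from the other sources was −0.23 for the enterocyte genes, 0.06 for the stem cell genes and −0.34 for the 8 genes.

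**Figure D4:**
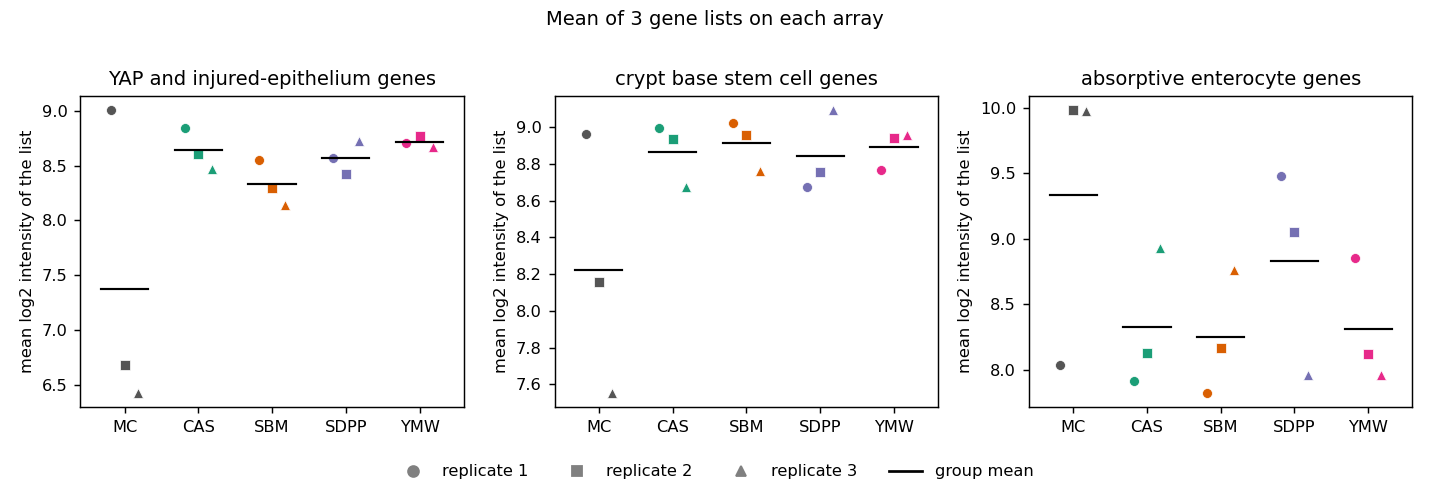
Mean log2 intensity (y axis, its range set for each panel) of the 8 YAP and injured-epithelium genes, 8 crypt base stem cell genes and 15 absorptive enterocyte genes on each array by group (x axis). Points are arrays, with a shape for each replicate number, and black bars are means of 3 arrays. MC replicates 2 and 3 are low in the first 2 panels and high in the third.

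The members differed in how they varied once the group means were removed. Over the 12 treated arrays, the deviations of Thbs1 and Fn1 from their group means correlated at 0.94, those of Clu and Ccn2 at 0.93 and those of Clu and Anxa1 at 0.90. The correlations of Ankrd1 with the 6 other genes above background were −0.25 to 0.29. These coefficients rest on 12 arrays that share their normalization, and they are a description. Over all 15 arrays the 21 pairs of the 7 genes above background correlated at 0.71 to 0.98, values that rest on the distance of MC replicates 2 and 3.

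Some of the genes whose log2 values over the 15 arrays were most like a member were shared between members, judged by Pearson's correlation. Ttc9 was the nearest to Clu (0.986) and to Ankrd1 (0.978), and over the 12 treated arrays alone it correlated with them at 0.743 and 0.506. Ccn1 and Ccn2 were each other's nearest gene (0.968, and 0.869 over the treated arrays). Map3k20 was the nearest to Thbs1 (0.975), Msn to Fn1 (0.985), Prorp to Anxa1 (0.959) and Prss46 to Ereg (0.776). Over the treated arrays these pairs correlated at 0.771, 0.859, 0.945 and 0.817 in the same order. The values of Ereg rest on a gene that was not above background.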

How the data were processed

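RNA from 15 cultures was measured on the Affymetrix mouse gene 1.1 ST array, 3 cultures per group. The intensity values, as deposited, were made by the authors with RMA, a background correction followed by quantile normalization and a summary over probes; its version is not given in the sources used here. They were linear, from 3.02 to 10739, and log2 was taken, although the design had foreseen log2 values. Of 35556 probe sets, 21218 had 1 gene symbol in the platform annotation, 1881 several and 12457 none here, and each of 18820 genes was represented by its brightest probe set on average. Background was set at the 95th percentile of the means of 1157 vomeronasal and olfactory receptor genes, and 12880 genes lay above it. The number of arrays limits the precision.

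Differences were tested two-sided with limma 3.58.1 in R 4.3.3, with variances moderated along a trend on intensity, in 1 fit of the 5 group means. The study's threshold was an unadjusted p under 0.05 with a fold change of at least 1.5, and Benjamini-Hochberg values cover all genes. The fit pools 1 variance per gene over groups, so where the MC arrays spread more, its SE is too small for the MC and too large between sources. The fit was tested on simulated data in which all groups shared a common SD for each gene. That setting lacks the wider spread of the MC arrays, so the test does not cover it. Pairs of sources, the fit of the 12 treated arrays with its alternatives and the list counts with other MC arrays were added after seeing the data. The other alternatives were MC replicate 1 as the only control, 1 prior variance, a replicate block, the arrays compared alone, genes above background, a second quantile normalization, median centring, array weights, an adjusted p, no fold threshold and the omission of each array.

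The genes and lists were chosen with earlier results of these data known. The text names all members, up to 4 genes of a list past the study's threshold with the largest difference of the mean of the sources from the MC, or otherwise the 2 with the highest mean, and the genes nearest to a member by correlation.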

Additional observations from a re-analysis of the deposited data

Results flagged for a closer look

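Both results below stand out because a protein source differed from the other 3 by a test of that difference itself. In the fit of the 12 treated arrays, added after seeing the data, Ccn1 was lower with SBM by −0.59 on the log2 scale and Ccn2 by −0.77. Their adjusted p was 0.0930 and 0.0650 by limma, and all 3 SBM arrays were below the other 9 treated arrays in both genes. In the fit of all 15 arrays the same differences did not pass the study's threshold.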

How the results depend on the processing

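Against the MC, the number of the 8 genes called was 6 with CAS, 4 with SBM, 6 with SDPP, 6 with YMW and 6 with the mean of the sources. With the arrays of the groups compared alone it was 1, 0, 0, 1 and 6. At an adjusted p under 0.05 it was 0 in all 5 comparisons. With genes above background alone it was 2 with SBM. With MC replicate 1 as the only control the differences of the 7 genes above background turned, as given below. Leaving out 1 array gave 3 to 6 with CAS, 0 to 6 with SBM, 1 to 6 with SDPP, 2 to 6 with YMW and 3 to 6 with the mean. Besides the MC arrays, leaving out SBM replicates 1, 2 and 3 in turn gave 1, 2 and 3 calls with SBM, and leaving out SDPP replicate 3 gave 3 calls with SDPP. For single sources, the share of all genes called is not given here without 1 array or with the compared arrays alone. Over all genes, 630 passed for the mean of the sources, 82 with MC replicate 1 alone, 275 and 139 without MC replicates 2 and 3, 1325 with array weights and 1633 without MC replicate 1. For single sources 725 (CAS), 659 (SBM), 306 (SDPP) and 728 (YMW) genes passed against the MC and 30, 5, 3 and 13 against the other sources. With no threshold on the fold change these became 3104, 3430, 2259 and 3583, and 1008, 909, 456 and 1036, and at an adjusted p under 0.05 they became 123, 1, 0 and 1, and 20, 1, 0 and 0. The cause was not tested.

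For SBM against the other sources, 0 of the 8 genes were called with 15 arrays, 2 with the 12 treated arrays alone and 1 with array weights on 15 arrays. Of the 2 genes called in the 12 treated arrays, 1 was left with a second quantile normalization, with median centring and with array weights, and 1 to 2 without 1 array. Ccn2 kept its call in all 17 alternatives, from −0.92 to −0.69, and Ccn1 lost it in 10, from −0.63 to −0.54. For YMW against the other sources, leaving out 1 treated array gave 0 to 1 calls, the 1 without YMW replicate 3.

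With MC replicate 1 as the only control, differences turned. Clu then differed by −0.17 with CAS, −0.24 with SBM, −0.23 with SDPP, −0.16 with YMW and −0.20 with the mean of the sources. In the same order Ankrd1 differed by −1.06, −1.32, −0.99, −0.68 and −1.01, Ccn1 by −0.21, −0.89, −0.46, −0.24 and −0.45, Ccn2 by −0.54, −1.38, −0.62, −0.66 and −0.80, Thbs1 by −0.11, −0.73, −0.39, −0.31 and −0.38, and Fn1 by −0.50, −0.61, −0.35, −0.20 and −0.42. Anxa1, which was not called, turned to −0.41, −0.29, −0.36, −0.21 and −0.32. Of the other values for single genes, 1420 stayed on their side of the threshold, where those not called could change sign, 121 no longer passed and 8 came to pass.

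The replicate numbers did not pair the arrays. Of 30 same-numbered pairs the median correlation of deviations from group means was −0.08, from −0.59 to 0.45, and 2 of 15 arrays were nearest to an array of their own number. With a block for the replicate number, 6, 4, 6, 6 and 6 of the 8 genes were called against the MC and 0 for each source against the others, as without it. Signal over background limited Ereg, and Ankrd1 on MC replicate 3. Fn1 on MC replicates 2 and 3 (4.24 and 4.34) and Ankrd1 on MC replicate 2 (4.65) lay little above the background of 3.91.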
